A study of Mus musculus with 12 samples.

Results

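The comparison described here is that of curcumin on the normal chow diet, between the livers of 3 aged mice fed normal chow with curcumin (NCD+CUR) and the livers of 3 aged mice fed normal chow alone (NCD). These are 6 of the 12 liver libraries of the study, chosen by their diet labels alone, and the other 6 come from mice on a high-fat high-sugar diet with curcumin (HFHSD+CUR) or without it (HFHSD). The study asked whether dietary curcumin changes the handling of insulin in old mice. All 12 mice were wild-type C57BL/6 males, and curcumin made up 0.4% of the diet by weight for 15 weeks. The NCD+CUR and NCD groups each held 2 mice labelled 99 weeks old (replicates 1 and 2) and 1 labelled 107 weeks old (replicate 3). The HFHSD+CUR and HFHSD mice were all labelled 99 weeks. RNA came from the left lateral lobe, so every level below is a mixture over the cells of a liver lobe, in which fewer cells of a type and less RNA per cell cannot be told apart.

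Curcumin is the yellow polyphenol of turmeric. The liver takes up what the gut lets through and conjugates it, with glucuronic acid through UDP-glucuronosyltransferases (UGTs) and with sulfate through sulfotransferases. Most liver RNA comes from hepatocytes, which make the plasma proteins and lipoproteins, detoxify ammonia in the urea cycle, store glycogen and clear insulin. Insulin acts on them through its receptor and the insulin receptor substrates, which restrain the FOXO transcription factors.

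Expression was given as FPKM, the fragments of a gene per kilobase of its transcript and per 1e6 mapped fragments. Of 23997 genes, the 10538 that averaged 1 FPKM or more in the 6 livers were compared on log2(FPKM + 0.1), with the replicate number as a pairing between the groups, and fold changes below are on that scale, which understates those of low genes. The words rose and fell, and the word called, are used for genes with an adjusted p from limma under 0.1. Hepatocyte markers were present throughout, their summed level being 138016 to 152672 FPKM in NCD+CUR livers and 132298 to 144138 FPKM in NCD livers. The 6 libraries correlated with each other at 0.960 to 0.986, and between 10382 and 10533 genes reached 1 FPKM in each. The number of fragments behind each value is unknown. The SE given is that of the paired fit. It reflects how far the differences within pairs vary, drawn towards the values of other genes, and leaves out differences between mice that a pair shares.

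Curcumin on chow was accompanied by many small differences and few large ones. Of the 10538 tested genes, 1628 (15.4%) passed the test, of which 783 (7.43%) rose and 845 (8.02%) fell. At an unadjusted p under 0.05, 2890 genes (27.4%) differed, 1399 higher and 1491 lower. The median log2 fold change was 0.45 among the genes that rose and -0.41 among those that fell, against -0.01 over all tested genes. Only 13 genes rose and 13 fell by 2-fold or more. Among the 1628 genes, 1624 moved in the same direction in all 3 pairs, as did 5323 (50.5%) of all tested genes, and in 1000 the 3 NCD+CUR livers lay wholly above or wholly below the 3 NCD livers, which held for 2063 (19.6%) of all tested genes. The calls rest on the pairing and on replicate 3: without the pairing 0 genes passed (1346 at an unadjusted p under 0.05), without replicate 3 only 2 passed, without replicate 1 713 and without replicate 2 3208. With the log2 number of mapped reads as a covariate, 109 passed.

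**Figure D1:**
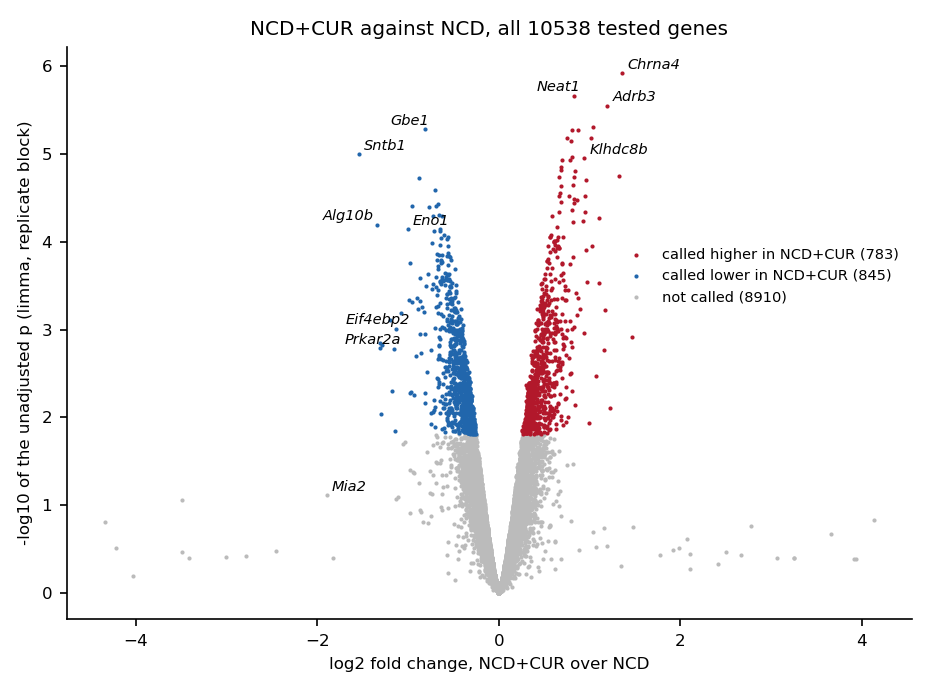
Log2 fold change of NCD+CUR over NCD (horizontal axis) against the -log10 of the unadjusted p from limma (vertical axis) for the 10538 tested genes, 1 point a gene. Red points are the 783 genes that rose, blue points the 845 that fell and gray points the 8910 that did not pass. The calls lie mostly within 1 log2 unit of 0. Gray points also lie far out on both sides, among them Mia2, whose difference was not of the same size in every pair.

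Among called genes with a mean of 5 FPKM or more, the largest rise was that of Chrna4, which encodes the alpha-4 subunit of the nicotinic acetylcholine receptor and is best known from neurons. It had 3.22, 14.2 and 27 FPKM in NCD+CUR replicates 1 to 3 and 0.911, 6.86 and 10.8 FPKM in NCD replicates 1 to 3, with a log2 fold change of 1.35 ± 0.13 (SE), adjusted p = 0.00754 in limma. It differed greatly between the mice of each group, and the livers of the groups overlapped, while the NCD+CUR liver was the higher in every pair. Adrb3, the beta-3 adrenergic receptor of fat cells, had 6.29, 11.3 and 6.69 FPKM in NCD+CUR replicates 1 to 3 and 3.18, 5.28 and 2.26 FPKM in NCD replicates 1 to 3. Its 3 NCD+CUR livers all lay above the 3 NCD livers (log2 fold change of 1.19 ± 0.13 (SE), adjusted p = 0.00754 in limma). Adipoq and other fat cell markers made up a list of which 3 members were tested, and Adrb3 was its 1 member that rose. The summed level of that list was 30.4 to 74.1 FPKM in NCD+CUR livers and 18.1 to 75.4 FPKM in NCD livers, and its part in the rise of Adrb3 was not tested.

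Neat1, the long noncoding RNA on which nuclear paraspeckles are built, was among the most abundant genes that rose. It stood at 293, 273 and 264 FPKM in NCD+CUR replicates 1 to 3 and 156, 164 and 146 FPKM in NCD replicates 1 to 3, and no NCD+CUR liver came near an NCD liver (log2 fold change of 0.83 ± 0.09 (SE), adjusted p = 0.00754 in limma). Malat1, a nuclear RNA transcribed beside it, had 57.7, 45.8 and 26.8 FPKM in NCD+CUR replicates 1 to 3 and 42.6, 17.8 and 25.1 FPKM in NCD replicates 1 to 3. The Malat1 levels overlapped and the test was not passed (log2 fold change of 0.63 ± 0.28 (SE), adjusted p = 0.251 in limma). Among the 20 tested members of a list of nuclear-retained RNAs and paraspeckle proteins, 4 rose and 1 fell, with a median log2 fold change of 0.19. The imprinted RNA Meg3 (0.74), Snhg11 (0.73) and Tardbp (0.46), which encodes the RNA-binding protein TDP-43, rose, and the RNA-binding protein gene Hnrnpk fell (-0.32). Meg3 averaged 1.08 FPKM over the 6 livers, close to the limit for testing, and the groups overlapped in Meg3 and Snhg11.

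The other rises among the 10 largest were those of Lgals4, Klhdc8b, Cyp46a1, Erdr1, Zfp579, Gm3893 and 2210039B01Rik, with log2 fold changes of 0.84 to 1.16. Klhdc8b, a kelch repeat protein, had 7.89, 9.89 and 10.9 FPKM in NCD+CUR replicates 1 to 3 and 3.75, 6.25 and 4.98 FPKM in NCD replicates 1 to 3, with no overlap (log2 fold change of 0.94 ± 0.12 (SE), adjusted p = 0.00827 in limma). Lgals4 encodes galectin-4, a sugar-binding protein of the gut lining, and had 28.2, 46.7 and 32.2 FPKM in NCD+CUR replicates 1 to 3 and 16.3, 28.3 and 14.8 FPKM in NCD replicates 1 to 3. NCD replicate 2 was as high in Lgals4 as the lowest NCD+CUR liver, so that the groups overlapped by a small margin (log2 fold change of 0.88 ± 0.10 (SE), adjusted p = 0.00754 in limma). Cyp46a1, the cholesterol 24-hydroxylase best known from brain, had 5.87, 6.99 and 11.1 FPKM in NCD+CUR replicates 1 to 3 and 3.20, 4.28 and 5.66 FPKM in NCD replicates 1 to 3 and did not overlap (log2 fold change of 0.84 ± 0.11 (SE), adjusted p = 0.00905 in limma). In 7 of the 10 largest rises the groups did not overlap, against 516 of all 783 genes that rose.

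**Figure D2:**
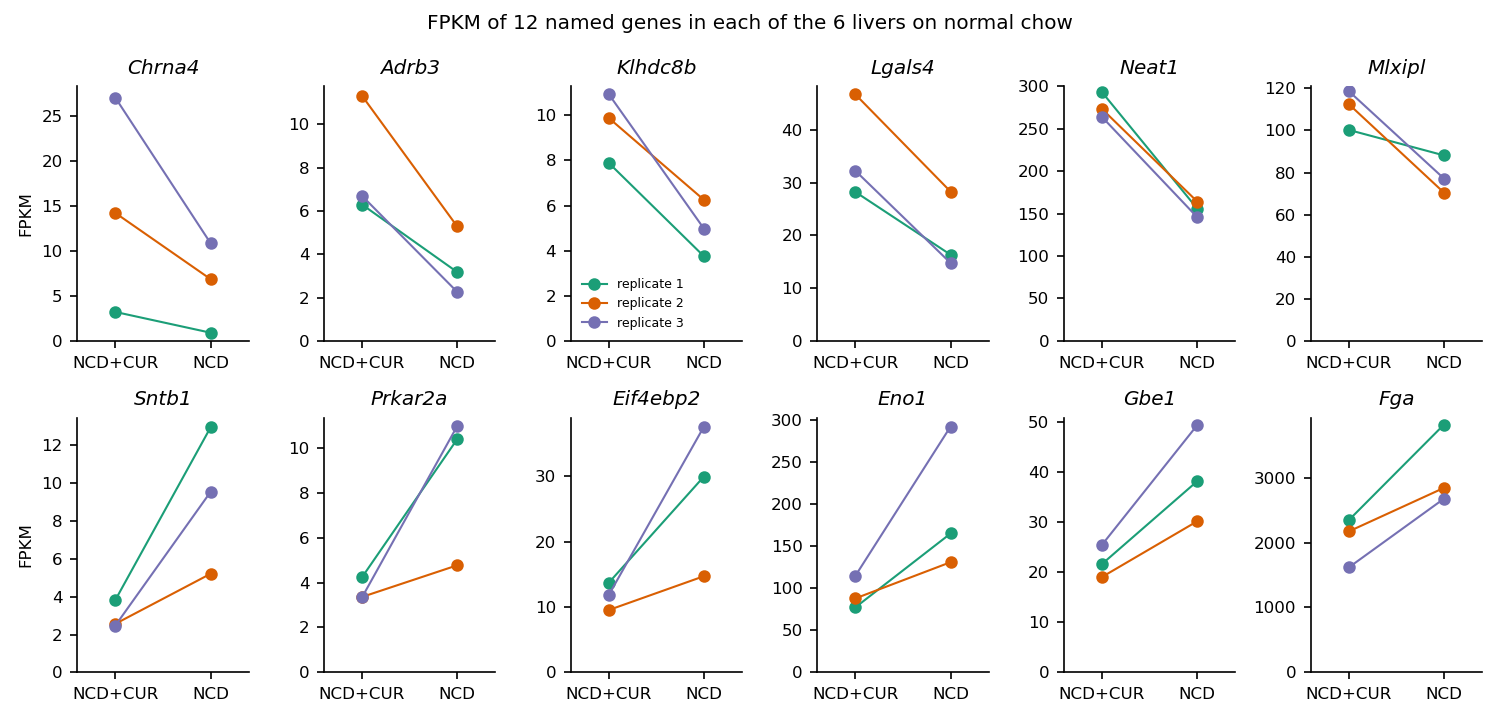
FPKM (vertical axes, from 0) of 12 named genes in the 3 NCD+CUR livers (left of each panel) and the 3 NCD livers (right), 1 point a liver, with lines joining livers of the same replicate number. Every line of the 6 upper genes falls to the right and every line of the 6 lower genes climbs to the right, and among the lower genes the line of replicate 2 is often the flattest, as in Prkar2a and Eif4ebp2.

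The largest fall by the same limit was that of Sntb1, which encodes syntrophin beta-1, an adaptor of the dystrophin complex. It had 3.83, 2.57 and 2.48 FPKM in NCD+CUR replicates 1 to 3 and 12.9, 5.21 and 9.53 FPKM in NCD replicates 1 to 3, with no overlap (log2 fold change of -1.54 ± 0.17 (SE), adjusted p = 0.00827 in limma). Prkar2a, the type II-alpha regulatory subunit that holds protein kinase A inactive, had 4.24, 3.36 and 3.34 FPKM in NCD+CUR replicates 1 to 3 and 10.4, 4.77 and 11 FPKM in NCD replicates 1 to 3 (log2 fold change of -1.15 ± 0.22 (SE), adjusted p = 0.0387 in limma). Eif4ebp2, a repressor of the cap-binding factor eIF4E that mTOR inactivates, had 13.7, 9.53 and 11.8 FPKM in NCD+CUR replicates 1 to 3 and 29.9, 14.7 and 37.6 FPKM in NCD replicates 1 to 3 (log2 fold change of -1.13 ± 0.19 (SE), adjusted p = 0.0315 in limma). In all 3 genes NCD replicate 2 stood well below the other 2 NCD livers. The same library was the lowest of its group in all 10 of the largest falls, and NCD replicate 3 was the highest in 8. Over the 845 genes that fell, the difference was smallest in pair 2 for 627 (74.2%) and largest in pair 3 for 622 (73.6%). Over the 783 that rose, pair 2 gave the smallest difference for 426 (54.4%) and pair 3 the largest for 478 (61.0%). NCD replicate 3 also had the most mapped reads of the 6 libraries, and the part of depth in these falls was not tested beyond the covariate given above.

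Eno1, which encodes the alpha form of the glycolytic enzyme enolase, had 77.2, 87.8 and 115 FPKM in NCD+CUR replicates 1 to 3 and 165, 131 and 292 FPKM in NCD replicates 1 to 3 (log2 fold change of -1.005 ± 0.14 (SE), adjusted p = 0.0146 in limma). The other falls among the 10 largest were those of Rnf125, a ubiquitin ligase, the MHC class I gene H2-L, Nudt12, a hydrolase of NADH and other nucleotides, Crebl2, Pik3ap1, an adaptor of phosphoinositide 3-kinase, and Ugt1a6a, with log2 fold changes of -1.07 to -0.88. The groups did not overlap in 8 of the 10 largest falls, against 484 of all 845 genes that fell. Mia2, which belongs to the export of large cargo from the endoplasmic reticulum, had 4.07, 2.52 and 2.94 FPKM in NCD+CUR replicates 1 to 3 and 16.4, 4.05 and 24.9 FPKM in NCD replicates 1 to 3. Its difference was larger than that of Sntb1 and yet it did not pass (log2 fold change of -1.90 ± 0.63 (SE), adjusted p = 0.229 in limma). NCD replicate 2 lay at the level of the highest NCD+CUR liver.

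Genes of insulin action mostly lay a little lower with curcumin. Of 38 tested members of the insulin receptor signaling list, 10 fell and 1 rose, with a median log2 fold change of -0.17. Here and for every list, the shares to compare are those over all tested genes, 7.43% higher and 8.02% lower. Foxo3, a FOXO transcription factor, had 1.19, 1.09 and 1.68 FPKM in NCD+CUR replicates 1 to 3 and 2.39, 1.41 and 4.30 FPKM in NCD replicates 1 to 3 (log2 fold change of -0.87 ± 0.19 (SE), adjusted p = 0.0322 in limma), and Foxo1, which drives gluconeogenesis, fell by 0.42 on the log2 scale. Irs2, an insulin receptor substrate, was near the lower limit of measurement at 0.525, 0.668 and 1.28 FPKM in NCD+CUR replicates 1 to 3 and 1.10, 0.695 and 2.88 FPKM in NCD replicates 1 to 3, and fell with its groups overlapping (log2 fold change of -0.70 ± 0.23 (SE), adjusted p = 0.0908 in limma). The phosphoinositide 3-kinase subunit Pik3cb (-0.46), the kinase Pdpk1 (-0.44) and Ceacam1 (-0.32), which takes part in insulin uptake, also fell, and Socs3, an inhibitor of cytokine signaling, rose (0.35). The receptor gene Insr itself did not pass, with 13.7, 14.2 and 13.3 FPKM in NCD+CUR replicates 1 to 3 and 14.4, 12.8 and 17.1 FPKM in NCD replicates 1 to 3 (log2 fold change of -0.10 ± 0.11 (SE), adjusted p = 0.604 in limma). Irs1 (-0.27, adjusted p = 0.291 in limma) did not pass either.

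Ide encodes the insulin-degrading enzyme, whose protein the study measured. Its RNA stood at 24.8, 18.5 and 15.6 FPKM in NCD+CUR replicates 1 to 3 and 29.4, 18.8 and 21.7 FPKM in NCD replicates 1 to 3, and the groups overlapped (log2 fold change of -0.25 ± 0.11 (SE), adjusted p = 0.167 in limma). The NCD+CUR liver was the lower in each pair, by the smallest margin in pair 2. Of 29 tested genes of mTOR and 4E-BP translation control, 6 fell and 1 rose (median -0.04). Beside Eif4ebp2, these falls included the initiation factor genes Eif4g1 (-0.46) and Eif4e (-0.32) and Rraga (-0.44), a GTPase that brings mTOR to lysosomes, and the rise was that of Flcn (0.37), the folliculin gene.

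The cytosolic ribosomal proteins, which form the ribosome with its RNAs, had the highest median of the 30 pathway lists. Of 79 members tested 33 rose and 0 fell, with a median log2 fold change of 0.28, and 74 of the 79 values were above 0. The rises lay between 0.28 and 0.54. The highest was that of Rps27, which averaged only 4.44 FPKM over the chow livers and whose groups overlapped. Rpl31, a protein of the large subunit, had 332, 361 and 345 FPKM in NCD+CUR replicates 1 to 3 and 236, 317 and 215 FPKM in NCD replicates 1 to 3, with no overlap (log2 fold change of 0.45 ± 0.11 (SE), adjusted p = 0.0380 in limma). The groups did not overlap in 11 of the 33, against 516 of all 783 genes that rose. Ribosomal protein genes have many processed pseudogenes with which reads can be shared, so their single values are uncertain.

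The starts of these genes are shown because many ribosomal protein messages begin with a run of pyrimidines, the 5′ terminal oligopyrimidine tract through which mTOR controls their translation. The sequences below are RefSeq windows on GRCm38.p6, 5′ to 3′, of 30 bases before and 20 bases from the annotated first base of the transcript, for the 6 genes of smallest p among those of the list that rose and that have 1 annotated start. Capitals mark the unbroken run of C and T that holds the annotated first base, where it is 5 bases or longer.
Rpl31 (chr1:39367821-39367870, plus strand): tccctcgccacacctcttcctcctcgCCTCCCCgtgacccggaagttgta
Rpl38 (chr11:114668550-114668599, plus strand): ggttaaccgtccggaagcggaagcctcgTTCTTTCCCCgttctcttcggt
Rps27 (chr3:90213629-90213678, minus strand): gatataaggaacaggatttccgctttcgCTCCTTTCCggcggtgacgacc
Rps18 (chr17:33955646-33955695, minus strand): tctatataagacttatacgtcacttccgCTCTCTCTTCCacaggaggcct
Rpl28 (chr7:4792935-4792984, plus strand): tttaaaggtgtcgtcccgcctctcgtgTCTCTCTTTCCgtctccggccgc
Rpl37a (chr1:72711230-72711279, plus strand): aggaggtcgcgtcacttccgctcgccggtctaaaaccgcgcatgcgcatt
The run was there in 5 of the 6, and Rpl37a lacked it at its annotated start. These genes had log2 fold changes of 0.45 (Rpl31), 0.48 (Rpl38), 0.54 (Rps27), 0.38 (Rps18), 0.49 (Rpl28) and 0.38 (Rpl37a). Over the 58 genes of the list with a RefSeq window, 21 of 68 windows (30.9%) held such a run, against 3330 of 32851 windows (10.1%) over all genes. Among motifs searched on both strands of the 300 bases around the start, TGACGTCA (the cyclic AMP response element) was in 6 of the 68 windows (8.82%) and in 1.79% of all, TGACNNNGC (the antioxidant response element) in 13 (19.1%) and in 12.4% of all, CACGTG (the E-box) in 8 (11.8%) and in 7.15% of all, and TTATGTAA (the D-box) in 0 and in 0.938% of all. These matches describe letters only.

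Nuclear genes of oxidative phosphorylation followed the ribosomal proteins, with 21 of 76 higher, 3 lower and a median of 0.22. Subunits of complex I made up 13 of the rises, Ndufa3 and Ndufa5 (0.46) among them, and Uqcrq (0.43) of complex III rose too. Ndufa3 had 509, 539 and 549 FPKM in NCD+CUR replicates 1 to 3 and 341, 478 and 347 FPKM in NCD replicates 1 to 3 (log2 fold change of 0.47 ± 0.11 (SE), adjusted p = 0.0354 in limma). The members that fell were the core subunits Sdha of complex II, Ndufs1 (-0.34) of complex I and Atp5b (-0.29) of the ATP synthase, and Sdha had 108, 102 and 114 FPKM in NCD+CUR replicates 1 to 3 and 141, 125 and 164 FPKM in NCD replicates 1 to 3 (log2 fold change of -0.40 ± 0.09 (SE), adjusted p = 0.0334 in limma). Of 77 mitochondrial ribosomal proteins, 5 rose and 0 fell (median 0.14), while of 37 proteasome subunits 0 rose and 2 fell (median -0.0035). At 6.49% and 5.41%, the called shares of these lists were below the 15.4% of all tested genes.

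Called genes differed in base composition and length. Those that rose had a median GC content of 53.3% and a median transcript length of 2543 bases, those that fell 45.2% and 3903 bases, and all tested genes 49.8% and 3162 bases. Ranked by GC content into 5 equal bins, 13.4% of genes rose and 1.86% fell in the bin of highest GC content, and 4.49% rose and 16.1% fell in that of lowest GC content. Ranked by length, 12.7% rose and 1.91% fell in the bin of shortest transcripts, and 3.92% rose and 11.3% fell in that of longest. After a loess trend against GC content and length was taken out of every library, 692 genes rose and 800 fell, of which 1126 were among the 1628. The median of the cytosolic ribosomal proteins was then 0.11, with 12 higher and 0 lower, and that of oxidative phosphorylation was 0.03, with 14 higher and 5 lower. The origin of these trends was not tested.

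**Figure D3:**
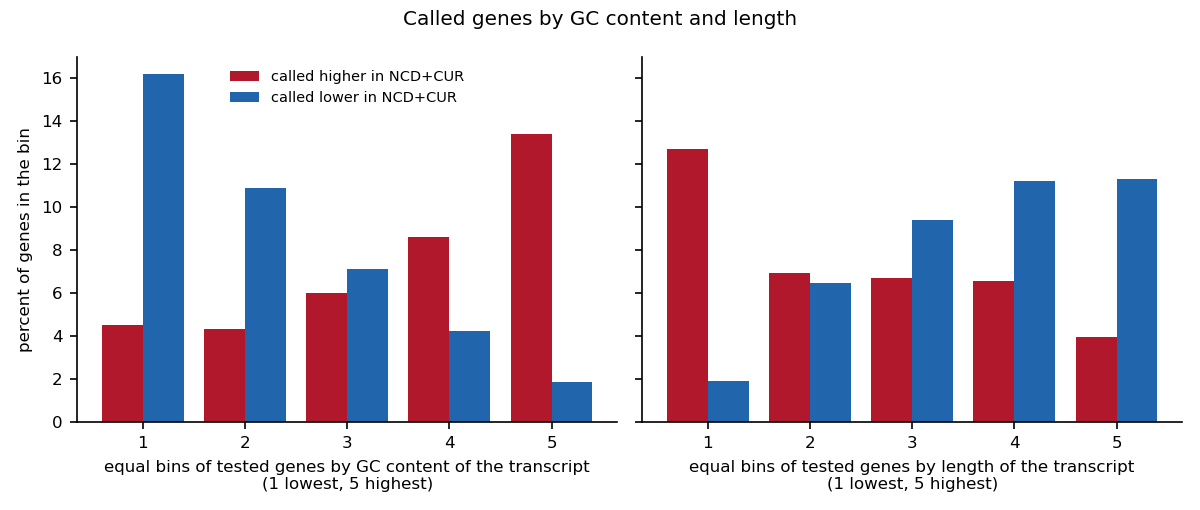
Percent of genes (vertical axis) that rose (red) or fell (blue) in NCD+CUR against NCD in each of 5 equal bins of the tested genes by GC content (left panel) and by transcript length (right panel), with 1 the lowest bin. Genes that fell make up 16.1% of the lowest GC bin and 1.86% of the highest, and 1.91% of the shortest bin and 11.3% of the longest.

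Genes of the secretory pathway were lower. Of 47 genes of translocation into the endoplasmic reticulum and of vesicle coats, 12 fell and 0 rose, with a median of -0.19. Sec24d and Sec23a, which form the inner coat of vesicles leaving the endoplasmic reticulum, had the largest falls among the 12. Sec24d had 17.7, 13.7 and 6.98 FPKM in NCD+CUR replicates 1 to 3 and 28.6, 18.6 and 12.4 FPKM in NCD replicates 1 to 3, higher at replicate 1 and lower at replicate 3 in both groups (log2 fold change of -0.65 ± 0.10 (SE), adjusted p = 0.0147 in limma). Sec23a had 12.1, 10.9 and 10.8 FPKM in NCD+CUR replicates 1 to 3 and 17.6, 14.5 and 17.6 FPKM in NCD replicates 1 to 3, with no overlap (log2 fold change of -0.55 ± 0.10 (SE), adjusted p = 0.0207 in limma). The cargo receptor Lman1 (-0.33), Copa (-0.29) of the coat that returns vesicles and Mia3 (-0.32), which loads large cargo, fell as well. Of 29 genes of the unfolded protein response and its chaperones 6 fell and 1 rose (median -0.16), and the largest fall among the 6 was that of Dnajb9, a helper of the chaperone BiP, at 17.1, 11.3 and 9.44 FPKM in NCD+CUR replicates 1 to 3 and 28.5, 19.3 and 13.5 FPKM in NCD replicates 1 to 3 (log2 fold change of -0.67 ± 0.10 (SE), adjusted p = 0.0110 in limma). Canx (-0.47), Hyou1 (-0.38) and the stress sensor Atf6 (-0.37) fell, and the transcription factor gene Atf4 rose (log2 fold change of 0.42 ± 0.10 (SE), adjusted p = 0.0407 in limma).

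N-glycan synthesis had 6 of 35 members lower and 0 higher (median -0.14). Alg10b, a glucosyltransferase that completes the glycan precursor, fell by 1.34 on the log2 scale, at low levels in every liver. It had 1.01, 0.689 and 0.977 FPKM in NCD+CUR replicates 1 to 3 and 2.43, 1.38 and 3.96 FPKM in NCD replicates 1 to 3 (adjusted p = 0.0137 in limma). Man1a, a mannosidase that trims glycans, had 23.3, 22.4 and 25 FPKM in NCD+CUR replicates 1 to 3 and 38.6, 27.4 and 44.1 FPKM in NCD replicates 1 to 3 (log2 fold change of -0.61 ± 0.11 (SE), adjusted p = 0.0213 in limma), and neither gene's groups overlapped.

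Some secreted proteins of the liver also fell. Of 44 complement and coagulation factors 12 fell and 0 rose (median -0.16). Fga, the alpha chain of fibrinogen, had 2344, 2171 and 1616 FPKM in NCD+CUR replicates 1 to 3 and 3816, 2842 and 2675 FPKM in NCD replicates 1 to 3, with no overlap (log2 fold change of -0.61 ± 0.10 (SE), adjusted p = 0.0153 in limma). F13b, the carrier subunit of clotting factor XIII, had 48.8, 41 and 51.6 FPKM in NCD+CUR replicates 1 to 3 and 74, 52.1 and 85.4 FPKM in NCD replicates 1 to 3 (log2 fold change of -0.56 ± 0.10 (SE), adjusted p = 0.0180 in limma). The complement genes C9 (-0.62) and C3 (-0.40) fell too. Of 30 acute phase genes 6 fell and 2 rose (median -0.11), led by Steap4, a metalloreductase, at 116, 76.7 and 34.3 FPKM in NCD+CUR replicates 1 to 3 and 182, 105 and 62.9 FPKM in NCD replicates 1 to 3. Steap4 differed more between replicate numbers than between the groups, and its groups overlapped (log2 fold change of -0.66 ± 0.10 (SE), adjusted p = 0.0120 in limma). Of 28 heat shock chaperones 6 fell and 0 rose (median -0.15), among them the mitochondrial chaperone Hspd1 (-0.40) and Hsp90aa1 (-0.32).

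**Figure D4:**
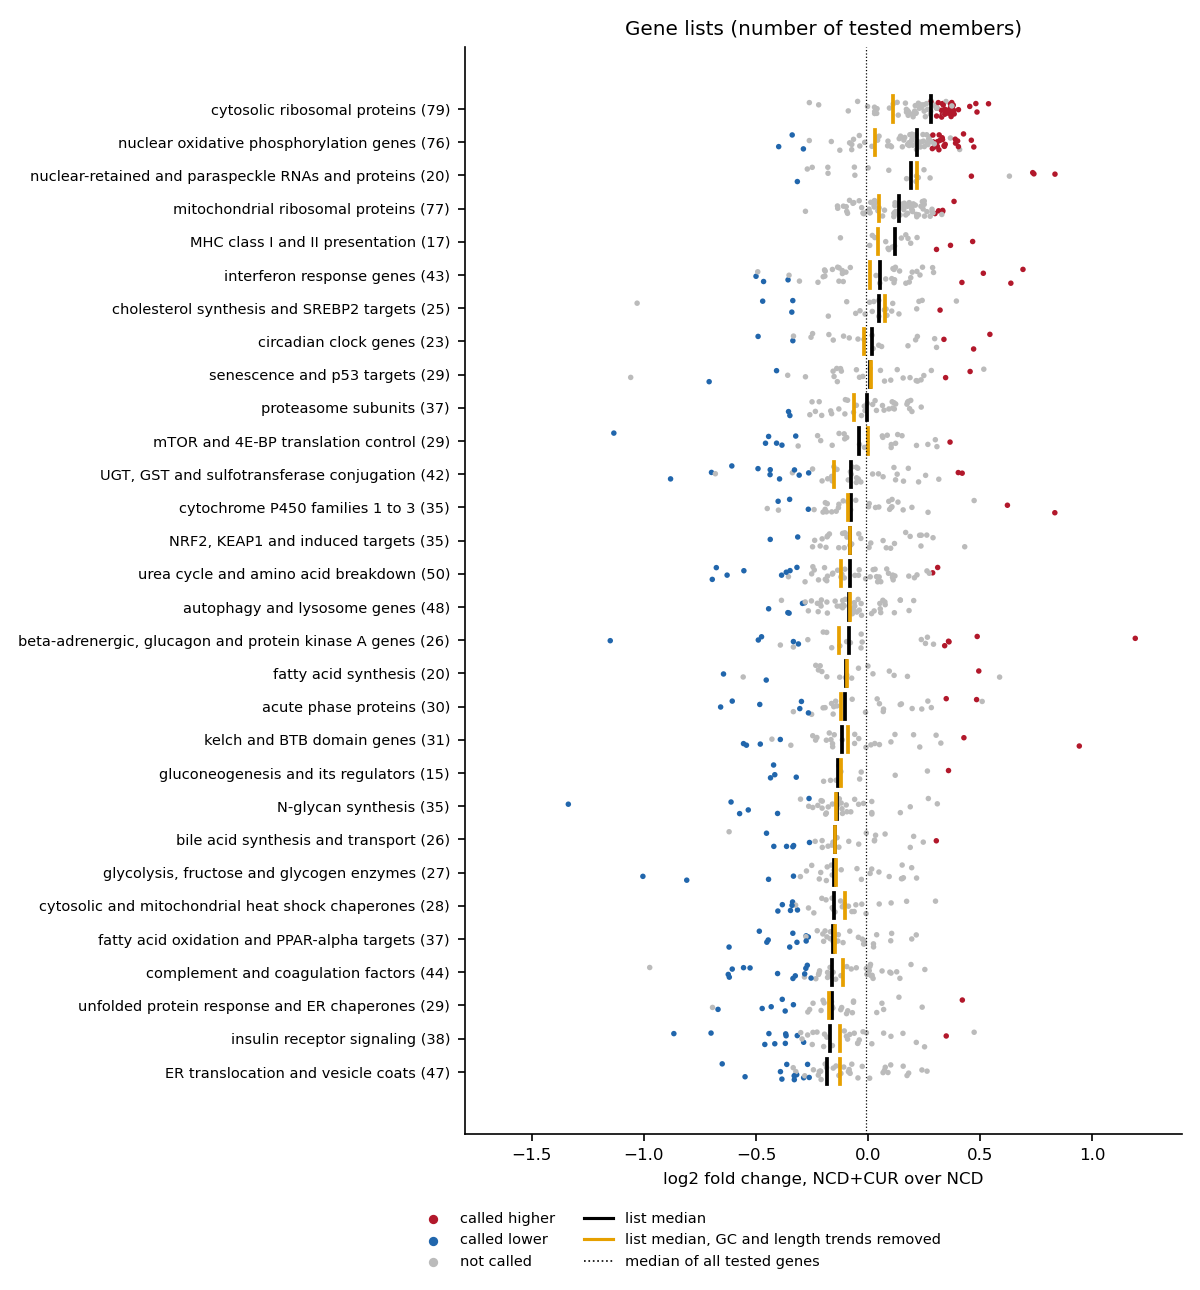
Log2 fold change of NCD+CUR over NCD (horizontal axis) for the tested members of each pathway list, 1 point a gene, with the number tested in brackets. The lowest member of the translocation and vesicle coat list, Mia2 at -1.90, lies beyond the left edge and is not seen. Red points rose, blue points fell and gray points did not pass. Black bars are the list medians, orange bars the medians once the GC and length trends were removed, and the dotted line is the median of all tested genes (-0.01). Ribosomal proteins and oxidative phosphorylation lie at the top with black medians of 0.28 and 0.22 and orange medians of 0.11 and 0.03, and the secretory genes lie at the bottom with a black median of -0.19.

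Of 50 genes of the urea cycle and of amino acid breakdown 8 fell and 2 rose (median -0.08). Cps1, which fixes ammonia in the first step of the urea cycle, had 389, 348 and 293 FPKM in NCD+CUR replicates 1 to 3 and 612, 441 and 600.5 FPKM in NCD replicates 1 to 3, with no overlap (log2 fold change of -0.68 ± 0.13 (SE), adjusted p = 0.0242 in limma). Gldc and Amt (-0.70), both of the glycine cleavage system, fell, Gldc having 9.35, 7.84 and 12.4 FPKM in NCD+CUR replicates 1 to 3 and 16.4, 10.4 and 19.9 FPKM in NCD replicates 1 to 3 (log2 fold change of -0.63 ± 0.11 (SE), adjusted p = 0.0171 in limma). Tdo2, which opens the ring of tryptophan, had 189.5, 214 and 322 FPKM in NCD+CUR replicates 1 to 3 and 317, 264 and 494 FPKM in NCD replicates 1 to 3 (log2 fold change of -0.55 ± 0.10 (SE), adjusted p = 0.0213 in limma).

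Gbe1, the branching enzyme of glycogen synthesis, had one of the smallest p-values of the comparison. It stood at 21.7, 19.1 and 25.5 FPKM in NCD+CUR replicates 1 to 3 and 38.2, 30.2 and 49.4 FPKM in NCD replicates 1 to 3, without overlap (log2 fold change of -0.81 ± 0.10 (SE), adjusted p = 0.00754 in limma). Of 27 genes of glycolysis, fructose use and glycogen 4 fell and 0 rose (median -0.15), and these were Eno1, Gbe1, the glucose transporter gene Slc2a2 (-0.44) and Pygl (-0.33), the glycogen phosphorylase of liver. Of 15 gluconeogenic genes and regulators 4 fell and 1 rose (median -0.13). The falls included Pcx (-0.42) and Fbp1 (-0.32), which encode pyruvate carboxylase and fructose bisphosphatase, and the rise was that of the glucagon receptor Gcgr, at 155, 186 and 169 FPKM in NCD+CUR replicates 1 to 3 and 122, 140.1 and 135 FPKM in NCD replicates 1 to 3 (log2 fold change of 0.36 ± 0.09 (SE), adjusted p = 0.0416 in limma). Pck1 had 521, 1051 and 987 FPKM in NCD+CUR replicates 1 to 3 and 609, 1044 and 919 FPKM in NCD replicates 1 to 3, its groups overlapping, and did not pass (log2 fold change of -0.04 ± 0.10 (SE), adjusted p = 0.822 in limma). G6pc did not pass either (log2 fold change of -0.13 ± 0.20 (SE), adjusted p = 0.710 in limma).

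Fatty acid oxidation and PPAR-alpha targets had 10 of 37 members lower and 0 higher (median -0.16), and 11 were lower and 0 higher with the GC and length trends removed. Cyp4a14, an omega-hydroxylase of fatty acids, had 31.7, 20.3 and 60.7 FPKM in NCD+CUR replicates 1 to 3 and 53.1, 27.9 and 96.1 FPKM in NCD replicates 1 to 3. It varied more with the replicate number than with curcumin, and was lower in NCD+CUR in each pair (log2 fold change of -0.62 ± 0.09 (SE), adjusted p = 0.0120 in limma). Ehhadh of peroxisomal oxidation had 41.4, 33.9 and 47.3 FPKM in NCD+CUR replicates 1 to 3 and 60.0, 45.8 and 66.5 FPKM in NCD replicates 1 to 3 (log2 fold change of -0.49 ± 0.09 (SE), adjusted p = 0.0192 in limma). Hadha (-0.35), Hadhb (-0.32), Acads (-0.28) and Acadm (-0.27), of mitochondrial oxidation, also fell.

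In fatty acid synthesis 2 of 20 members fell and 1 rose (median -0.10). The rise was that of Mlxipl, the gene of the glucose-sensing factor ChREBP, at 100.2, 113 and 119 FPKM in NCD+CUR replicates 1 to 3 and 88.1, 70.5 and 77.2 FPKM in NCD replicates 1 to 3, with no overlap (log2 fold change of 0.49 ± 0.11 (SE), adjusted p = 0.0315 in limma). Fads2, the delta-6 desaturase, had 122, 176 and 214 FPKM in NCD+CUR replicates 1 to 3 and 189, 232 and 401 FPKM in NCD replicates 1 to 3 (log2 fold change of -0.65 ± 0.11 (SE), adjusted p = 0.0158 in limma), and Acly, which makes acetyl-CoA from citrate, fell by 0.45 on the log2 scale. Fasn (log2 fold change of -0.13 ± 0.09 (SE), adjusted p = 0.398 in limma) and Scd1 (log2 fold change of -0.22 ± 0.13 (SE), adjusted p = 0.312 in limma) did not pass. Of 25 genes of cholesterol synthesis 3 fell, among them Hsd17b7 and the regulator Srebf2, and 1 rose, Nsdhl (median 0.05). Called members were 15% of fatty acid synthesis and 16% of cholesterol synthesis genes, near the 15.4% of all tested genes. In bile acid synthesis and transport 6 of 26 fell and 1 rose (median -0.15), among the falls the uptake transporters Slco1a1 (-0.45) and Slco1b2 (-0.42). Cyp7a1, the rate-limiting enzyme of bile acid synthesis, had 16.5, 6.35 and 44.4 FPKM in NCD+CUR replicates 1 to 3 and 16.7, 4.83 and 58.4 FPKM in NCD replicates 1 to 3, and did not pass (log2 fold change of -0.01 ± 0.14 (SE), adjusted p = 0.976 in limma).

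Among the enzymes that conjugate foreign compounds, 10 of 42 fell and 2 rose (median -0.08). Ugt1a1, which conjugates bilirubin, had 72.9, 54.4 and 88.4 FPKM in NCD+CUR replicates 1 to 3 and 124, 75.9 and 159.7 FPKM in NCD replicates 1 to 3 (log2 fold change of -0.70 ± 0.10 (SE), adjusted p = 0.0103 in limma). Ugt1a6a, which conjugates small phenols, had 9.83, 9.30 and 12.6 FPKM in NCD+CUR replicates 1 to 3 and 19.6, 13.6 and 27.3 FPKM in NCD replicates 1 to 3, with no overlap (log2 fold change of -0.88 ± 0.12 (SE), adjusted p = 0.00905 in limma). Of the 15 tested Ugt genes 8 fell and 1 rose, Ugt1a6b (0.40). The Ugt1a genes share their last exons, so reads may be split between them and their single values are uncertain. Cytochrome P450 genes of families 1 to 3 had 3 of 35 lower and 2 higher (median -0.08), the rises being Cyp2j9 and Cyp2d13. Cyp2j9 had 12.3, 14.8 and 14.9 FPKM in NCD+CUR replicates 1 to 3 and 8.11, 8.19 and 7.11 FPKM in NCD replicates 1 to 3, with no overlap (log2 fold change of 0.83 ± 0.11 (SE), adjusted p = 0.00905 in limma). Targets of NRF2, a factor that curcumin is known to activate in cultured cells, had 2 of 35 lower, Gsta2 (-0.44) and Gsr (-0.31), and 0 higher (median -0.08). For P450 and NRF2 genes the shares called in either direction were 14.3% and 5.71%, against 15.4% of all tested genes.

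Of 23 clock genes 3 rose and 2 fell (median 0.02). Per2 and Per3 encode period proteins that repress their own transcription. Per2 had 10.9, 11.9 and 11.2 FPKM in NCD+CUR replicates 1 to 3 and 8.71, 6.97 and 7.63 FPKM in NCD replicates 1 to 3, with no overlap (log2 fold change of 0.54 ± 0.11 (SE), adjusted p = 0.0277 in limma), and Per3 had 16, 14.6 and 19.9 FPKM in NCD+CUR replicates 1 to 3 and 11.5, 10.5 and 14.3 FPKM in NCD replicates 1 to 3, with no overlap either (log2 fold change of 0.47 ± 0.09 (SE), adjusted p = 0.0249 in limma). The third rise was Ciart (0.34), and Wee1 (-0.49) and Bhlhe40 (-0.34) fell. In beta-adrenergic, glucagon and protein kinase A genes 5 of 26 rose and 5 fell (median -0.09). Beside Prkar2a, the falls held the kinase subunits Prkar1a (-0.33) and Prkacb (-0.31) and the phosphodiesterase Pde3b (-0.49), and beside Adrb3 and Gcgr the rises held the adenylyl cyclase Adcy6 (0.36).

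Interferon response genes had 4 of 43 higher and 3 lower (median 0.05). Stat2, which carries the type I interferon signal to the nucleus, had 24.1, 29 and 23 FPKM in NCD+CUR replicates 1 to 3 and 18.4, 19.1 and 15.7 FPKM in NCD replicates 1 to 3, with no overlap (log2 fold change of 0.51 ± 0.09 (SE), adjusted p = 0.0207 in limma). The antiviral genes Mx1 (0.69), Oas2 (0.64) and Isg15 (0.42) rose and Gbp2 (-0.50) fell. Mx1 and Oas2 averaged 1.12 and 1.17 FPKM over the chow livers, close to the limit for testing. Of 17 genes of MHC presentation 3 rose and 0 fell (median 0.12), among them Nlrc5 (0.47), the activator of class I genes. The class I gene H2-L, which fell by 0.99 on the log2 scale, was not in that list. Senescence and p53 targets had 2 of 29 higher, Gadd45g (0.45) and Bax (0.35), and 2 lower, Cxcl10 (-0.71) and Ccnd1 (-0.41), with a median of 0.01. Cdkn1a, the p21 gene that marks senescence, had 2.91, 1.97 and 1.45 FPKM in NCD+CUR replicates 1 to 3 and 2.47, 1.74 and 1.38 FPKM in NCD replicates 1 to 3 and did not pass (log2 fold change of 0.16 ± 0.15 (SE), adjusted p = 0.520 in limma). Autophagy and lysosome genes had 5 of 48 lower and 0 higher (median -0.09), and kelch and BTB domain genes 4 of 31 lower and 2 higher (median -0.12). The share called in either direction was 16.3% for interferon, 13.8% for senescence and 10.4% for autophagy genes, against 15.4% of all tested genes.

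Lists of markers of the other liver cells were short, so their counts of calls are small. The share called was 8.33% for Kupffer cell and 15.4% for endothelial markers, against 15.4% of all tested genes. Of 12 tested Kupffer cell and macrophage markers 1 fell and 0 rose, with 3 of the 12 above 0 (median -0.24), and their summed level was 203 to 353 FPKM in NCD+CUR livers and 207 to 441 FPKM in NCD livers. The 1 that fell, Emr1, had 1.94, 1.17 and 0.556 FPKM in NCD+CUR replicates 1 to 3 and 2.64, 2.24 and 1.33 FPKM in NCD replicates 1 to 3 (log2 fold change of -0.81 ± 0.18 (SE), adjusted p = 0.0322 in limma). Of 13 endothelial markers 2 rose, Stab1 and Egfl7, and 0 fell (median 0.20), with sums of 94.3 to 117 FPKM in NCD+CUR livers and 88.8 to 102 FPKM in NCD livers. Stab1, a scavenger receptor of the sinusoids, had 9.24, 9.14 and 7.53 FPKM in NCD+CUR replicates 1 to 3 and 6.38, 6.34 and 4.75 FPKM in NCD replicates 1 to 3, with no overlap (log2 fold change of 0.57 ± 0.10 (SE), adjusted p = 0.0207 in limma). Stellate, T and NK cell, neutrophil, cholangiocyte and red blood cell markers (13, 2, 2, 6 and 6 tested) had 0 members called, and of 5 B cell markers Mzb1 rose. All 6 cholangiocyte markers had a log2 fold change above 0 (median 0.28), and of 3 fat cell markers Adrb3 rose (median 0.31). The neutrophil genes S100a8 and S100a9 and the cholangiocyte sum, which was 75.2 to 136 FPKM in NCD+CUR livers and 36.3 to 194 FPKM in NCD livers, varied widely within groups. Of the 24 hepatocyte markers 4 fell (Cps1, Fga, Tdo2 and Apob) and 2 rose (Apoa2 and Apoc3), with a median of -0.08. Immediate early genes, which respond to handling, had 0 of 9 called, and of 6 RNAs without a poly(A) tail, 5 were above 0 with a median log2 fold change of 0.70 and a highest value of 2.78, and 1 passed, Hist1h1c, which fell. The summed level of these RNAs was 219 to 1918 FPKM in NCD+CUR livers and 193 to 1608 FPKM in NCD livers, and their median in HFHSD+CUR against HFHSD was 2.10. The part of cell makeup or of these RNAs in any result above was not tested.

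Curcumin was also compared on the high-fat high-sugar diet. In a fit over all 12 livers with the replicate pairing within each diet, 4815 of 10545 tested genes (45.7%) passed in HFHSD+CUR against HFHSD, and 860 (460 higher and 400 lower) passed in NCD+CUR against NCD, 852 of them among the 1628 called over the 6 chow livers. The counts that follow set the 1628 genes of the fit over the 6 chow livers beside the HFHSD values of the fit over 12. Of the 1628 genes called on chow, 1621 had a value on HFHSD, and 1605 of these had the same sign there. Genes called on both diets numbered 712 higher on both, 807 lower on both and 0 in opposite directions. The share of all tested genes with the same sign on both diets was not worked out, so the same-sign count has no background. HFHSD replicate 3, like NCD replicate 3, had the most mapped reads of the livers on its diet, and neither mouse received curcumin. The part of depth in the agreement between the diets was not tested. Of 25 named genes called on chow, the change was the further from 0 on HFHSD in 22. These 25 were the largest rises and falls and the called genes of the fixed set. Called genes named only from the lists or from the contrast between the diets were left out of this count. Most of those from the lists also changed more on HFHSD, Gbe1, Sdha, Foxo3, Tdo2 and Stab1 among them. Cyp4a14, Cxcl10, Emr1 and Nsdhl were among the fewer that changed less there. The count therefore does not describe all named genes. Sntb1 changed by -1.54 ± 0.17 on chow and by -2.39 ± 0.30 (SE) on HFHSD, and Neat1 by 0.83 ± 0.09 and 1.38 ± 0.11.

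When the responses on the 2 diets were tested against each other, 0 of 10545 genes passed in limma (0%), and 573 (5.43%) had an unadjusted p under 0.05. The smallest adjusted p was 0.826, so no gene is shown to respond differently on chow and on HFHSD. The genes of smallest p in this contrast all changed less on chow. Cyp2c29, a drug-metabolizing cytochrome P450, changed by -0.40 on chow and by -0.96 on HFHSD, a difference of 0.56 ± 0.13 (SE, chow minus HFHSD). Arrdc2 changed by 0.37 and 1.01, a difference of -0.65 ± 0.15 (SE, chow minus HFHSD). Plgrkt, a plasminogen receptor, changed by 0.53 and 1.43, a difference of -0.90 ± 0.22 (SE, chow minus HFHSD). The other genes singled out by this contrast were Akr1c19, Acsm3, C8b, Xkr9, Cxcl1, Chka and Trim7, with differences of 0.57 to 0.77 for the first 4 and -0.72 to -0.54 for the last 3, all with an adjusted p of 0.826 in limma.

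**Figure D5:**
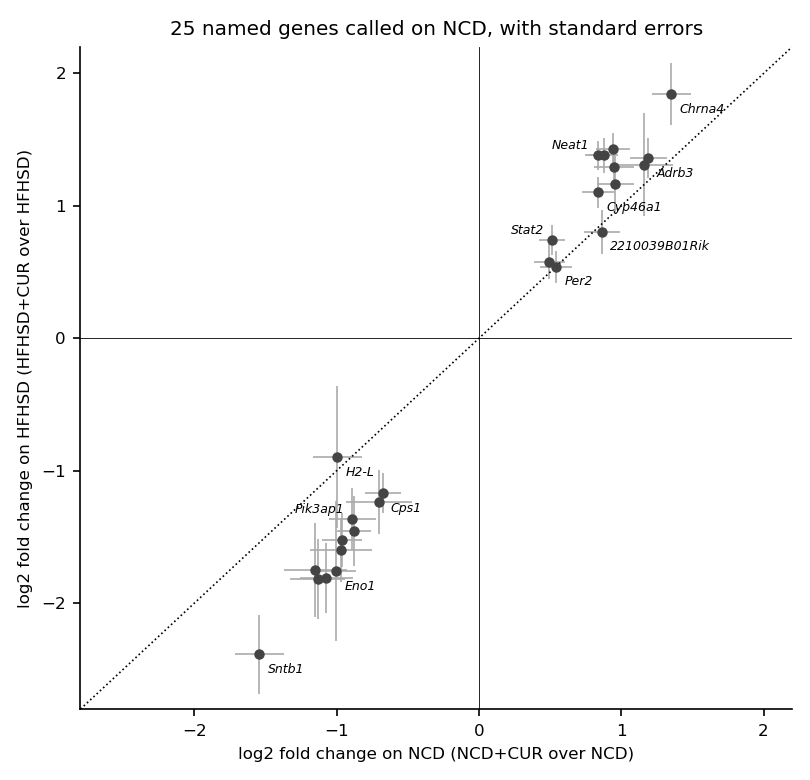
Log2 fold change of curcumin on NCD (horizontal axis) against that on HFHSD (vertical axis) for 25 named genes called on NCD, with standard errors as lines and some gene names shown. The dotted line marks equal changes. All 25 lie in the quadrants of equal sign, and 22 lie further from 0 on HFHSD than on NCD. The 25 are the largest rises and falls and the called genes of the fixed set. Called genes named only from the lists or from the contrast between the diets are not shown.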

How the data were processed

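The authors aligned paired reads of 100 bases from stranded poly(A) libraries to mm10 with TopHat2 2.0.13 and deposited FPKM values made with Cuffdiff 2.2.1 (per the labels), scaled by transcript length and library size with settings pooled over groups. FPKM are not counts, so a gene's counting error is unknown. The deposited fold change and p columns hold the authors' own comparisons and were not used. Fragments were counted against UCSC annotations; RefSeq windows are from GRCm38.p6.

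Tests used limma 3.58.1 (R 4.3.3) on log2(FPKM + 0.1), with variance trend and robust moderation, the replicate number as a block, a mean of at least 1 FPKM, and Benjamini-Hochberg adjustment over all tested genes. The script was tested on simulated data. Neither labels nor paper say what replicate numbers stand for or that samples share a source. Numbers were taken as pairs by the plan of the comparison. Once group means were subtracted, NCD+CUR and NCD libraries that share a number correlated at 0.332, 0.299 and 0.516, each over 0.1 and the highest for that number. These correlations come from the same values that were tested, so they cannot establish that the mice were paired. Both mice of replicate 3 were labelled 107 weeks, and the part of age in their correlation was not tested. If the livers were not separate mice, p-values would measure technical spread. An exact permutation of 3 against 3 that ignores the pairing cannot go below 0.1. One that keeps the pairs has fewer arrangements and so a higher limit. GC content and length came from GENCODE vM21 (10462 genes matched) and their trends were removed by loess (span 0.4). The mapped read covariate came from the study's alignment summary.

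Named genes were the 10 largest rises and falls among called genes of at least 5 FPKM with 3 concordant pairs, the 2 genes of smallest p in each of 42 lists, a fixed set of 24 genes such as Ide, Insr and Cyp7a1, and the 5 genes of smallest p in each direction between the diets. Other list members were named after their values were seen, as were the genes of the closing observations. The members and lists were chosen with earlier results of these data known. Uhmk1, of the fixed set, was below 1 FPKM and untested. Some named genes are not reported here.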

Additional observations from a re-analysis of the deposited data

Results flagged for a closer look

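Jun and Igf1 are listed because their 3 livers with curcumin moved one way on chow and the opposite way on HFHSD, pair by pair. Jun, a subunit of the AP-1 transcription factor, changed by -0.25 on NCD and by 0.27 on HFHSD, a difference of -0.52 on the log2 scale (unadjusted p = 0.0192 and adjusted p = 0.826 in limma). Igf1, the growth factor that the liver releases in response to growth hormone, changed by 0.13 on NCD and by -0.06 on HFHSD, a difference of 0.19 (unadjusted p = 0.173 and adjusted p = 0.834 in limma). Neither difference passed the test.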

How the results depend on the processing

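Against 783 genes higher and 845 lower, pseudocounts of 1 and 0.01, quantile normalization, equal medians, a filter at 5 FPKM and removal of GC and length trends gave 673 to 791 higher and 647 to 853 lower. No filter gave 75 and 38 (17056 genes tested), moderation without trend and robustness 156 and 91, an adjusted p under 0.05 336 and 332, mapped reads as a covariate 64 and 45, and all 12 libraries with the pairing within each diet 460 and 400. No replicate block gave 0 and 0 (1346 at an unadjusted p under 0.05), also with age as a covariate (2147). Leaving out a replicate pair gave 1 to 1631 higher and 1 to 1577 lower, the lowest without replicate 3 and the highest without replicate 2. Leaving out 1 library without the block gave 0 to 452 higher and 0 to 515 lower, the highest without NCD replicate 2. In each of these settings at least 1601 of the 1628 genes that had a value kept their sign, save that 1190 of 1190 did at a minimum of 5 FPKM. Of the 85 named genes called, 76 of the 83 with a value were called with the GC and length trends removed, 28 with mapped reads as a covariate (1 residual degree of freedom), and 0 without replicate 3, where all 85 kept their sign and 82 had an unadjusted p under 0.05. No list held more than 2 called members with mapped reads as a covariate. The causes were not tested.

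The difference between the diets was called for 0 genes in the other settings, 1 to 2 when a replicate pair was left out, and 145 genes had an unadjusted p under 0.05 with no replicate block. Among called genes, and genes that passed under the alternative, values that turned round were those of the gene Mrpl54 (-0.0080 with the GC and length trends removed), the gene Nsdhl (-0.11 without the block and NCD replicate 1, -0.0134 without the block and NCD+CUR replicate 3) and the gene S100a8 (-0.07 with all pairs, and -0.44 to 0.66 when a replicate pair was left out, the highest without replicate 2). Insr, Scd1, Cyp7a1 and Cidec, which did not pass, also changed sign with mapped reads as a covariate, without passing there.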

Other observations

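The rises included genes of the splicing machinery, and those below were chosen after their values were seen, so their number says nothing of splicing genes as a whole. All 4 CLK kinases, which phosphorylate serine- and arginine-rich splicing factors, rose, with log2 fold changes of 0.38 for Clk3, 0.50 for Clk1, 0.55 for Clk4 and 0.60 for Clk2. Clk4 had 23.7, 26.9 and 24.5 FPKM in NCD+CUR replicates 1 to 3 and 15.8, 20.3 and 15.6 FPKM in NCD replicates 1 to 3 (log2 fold change of 0.55 ± 0.10 (SE), adjusted p = 0.0175 in limma). The cyclin gene Ccnl2 had 54.5, 64.6 and 57.5 FPKM in NCD+CUR replicates 1 to 3 and 34.6, 42.5 and 33.0 FPKM in NCD replicates 1 to 3 (log2 fold change of 0.69 ± 0.09 (SE), adjusted p = 0.00905 in limma), and its relative Ccnl1 rose by 0.50. Luc7l2, a factor of the U1 particle, had 62.3, 69.2 and 65.9 FPKM in NCD+CUR replicates 1 to 3 and 38.8, 43.0 and 35.6 FPKM in NCD replicates 1 to 3, all 3 NCD+CUR livers lying above the 3 NCD livers (log2 fold change of 0.75 ± 0.09 (SE), adjusted p = 0.00754 in limma). With Rbm5 (0.67), Akap8l (0.67), Prpf38b (0.64), Prpf39 (0.62), Srek1 (0.58), Rsrp1 (0.56) and Tra2a (0.47), the 14 genes of this group ranged over 0.38 to 0.75. The long noncoding RNAs Firre (0.69) and Dancr (0.63) rose as well.

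The enolase genes moved in opposite directions. Eno3, best known as the form of muscle, had 5.81, 6.60 and 7.41 FPKM in NCD+CUR replicates 1 to 3 and 2.50, 3.67 and 3.38 FPKM in NCD replicates 1 to 3 (log2 fold change of 1.04 ± 0.12 (SE), adjusted p = 0.00754 in limma), while Eno1 fell by 1.00 on the log2 scale. Hif1a, the oxygen-sensing transcription factor, had 5.12, 4.34 and 4.84 FPKM in NCD+CUR replicates 1 to 3 and 8.63, 5.67 and 8.36 FPKM in NCD replicates 1 to 3 and fell (log2 fold change of -0.63 ± 0.12 (SE), adjusted p = 0.0218 in limma), and Vegfa, a growth factor for vessels and one of its known targets, had 81.1, 92.5 and 101 FPKM in NCD+CUR replicates 1 to 3 and 57.2, 63.1 and 62.3 FPKM in NCD replicates 1 to 3 and rose (log2 fold change of 0.58 ± 0.09 (SE), adjusted p = 0.0120 in limma). Of 210 tested genes named Zfp and a number, which encode zinc finger proteins, 23 rose and 3 fell, against 7.43% and 8.02% of all tested genes.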
